A study of Homo sapiens with 23 samples.

Results

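Long non-coding RNA (lncRNA) genes are transcribed by RNA polymerase II from promoters of their own but make no protein. Many lncRNA genes begin next to a protein-coding gene, so that a histone mark over such a start cannot be given to either gene. The promoters described here stood alone. They were the windows reaching 1 kb to either side of the 5′ end of each GENCODE 44 lncRNA gene on chromosomes 1 to 22 and X, wherever no protein-coding gene began within 5 kb. The rule kept 14454 of 18756 lncRNA promoters, among 38726 promoters of lncRNA and protein-coding genes in all, and it used no measured value. Of these, 4035 belonged to a gene with a symbol and the others are known by an Ensembl identifier.

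The cells were SW480, an established colorectal cancer line of epithelial origin, and every library came from this 1 line. They were treated with 10 mM sodium propionate (NaPr) or 1 mM sodium butyrate (NaBu) for 12 to 16 hours, or left untreated, so the doses of the salts differed. Chromatin immunoprecipitation and sequencing (ChIP-seq) mapped lysines 18 of histone H3 and 12 of histone H4 (H3K18 and H4K12) carrying a propionyl (pr), butyryl (bu) or acetyl (ac) group. The 10 groups were H3K18pr and H4K12pr under NaPr, H3K18bu and H4K12bu under NaBu, and H3K18ac and H4K12ac under NaPr, under NaBu and without treatment. Each group had 2 libraries labelled as replicates, which may be technical. P-values of contrasts between groups measure only the spread between these libraries. Those over group means measure only how regular a difference was among the groups. Each of the 3 conditions had 1 input library of sheared chromatin without antibody. The data were lists of peaks, called in each library on its own. The label was read against marker promoters in the 12 acetyl libraries. Of the epithelial markers, KRT8, KRT18 and KRT19, keratins of simple epithelia, were covered in 12 of 12, EPCAM in 11, CDH1 and VIL1 in 8 and ELF3 in 4. Of the markers of other lineages, PTPRC, MYOD1 and ALB of blood, muscle and liver were covered in 0 and CD3E in 1, but CD79A and INS in 3, PECAM1 in 4 and the collagen gene COL1A1 in 7.

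Lysine acylation neutralises the positive charge of histone tails, and acetylation of H3K18 and H4K12 is found at active promoters and enhancers. Propionate and butyrate are short-chain fatty acids made by gut bacteria. Cells turn them into the CoA forms from which propionyl and butyryl groups reach histones, and butyrate also inhibits histone deacetylases. Promoters of lncRNAs are on average poorer in CpG dinucleotides than those of protein-coding genes, and CpG-rich promoters are those most often occupied by active chromatin in many tissues.

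To show what such promoters look like, 6 sequences of the hg38 reference genome are given, read along the gene with CpG dinucleotides in capitals. Each runs from 250 bases before to 50 bases after the GENCODE start. The first 3 belong to the named lncRNAs whose peaks stood highest among those present in every immunoprecipitated library and absent from the inputs. They are LINC01186 on the minus strand (chrX:46327631-46327930), LNCRNA-IUR on the plus strand (chr11:95150289-95150588) and KMT2E-AS1 on the minus strand (chr7:105014272-105014571), with 2, 18 and 21 CpGs.
LINC01186: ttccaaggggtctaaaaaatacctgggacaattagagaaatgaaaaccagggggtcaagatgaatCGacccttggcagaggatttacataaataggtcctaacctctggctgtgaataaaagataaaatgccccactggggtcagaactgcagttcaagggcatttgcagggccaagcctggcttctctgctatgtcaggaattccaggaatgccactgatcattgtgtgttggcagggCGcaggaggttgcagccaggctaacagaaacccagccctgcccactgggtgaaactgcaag
LNCRNA-IUR: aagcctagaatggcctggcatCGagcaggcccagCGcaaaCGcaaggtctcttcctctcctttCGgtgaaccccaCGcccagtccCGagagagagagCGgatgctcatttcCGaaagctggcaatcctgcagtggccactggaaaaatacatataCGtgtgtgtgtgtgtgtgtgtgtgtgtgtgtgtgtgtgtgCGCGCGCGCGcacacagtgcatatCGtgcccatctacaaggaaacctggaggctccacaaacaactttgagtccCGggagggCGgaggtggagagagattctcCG
KMT2E-AS1: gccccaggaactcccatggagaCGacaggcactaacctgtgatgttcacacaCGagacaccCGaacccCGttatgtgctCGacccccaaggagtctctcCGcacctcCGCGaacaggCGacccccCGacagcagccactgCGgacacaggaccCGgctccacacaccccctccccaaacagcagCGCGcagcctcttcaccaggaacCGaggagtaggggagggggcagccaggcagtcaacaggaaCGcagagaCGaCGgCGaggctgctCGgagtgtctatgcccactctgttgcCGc

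The other 3 carried an acyl mark in both replicates where the acetyl mark at the same lysine was in neither. Each came first by peak fold among such promoters with a symbol and no input peak, and for H4K12bu there was only 1. They are LINC01516 for H3K18pr (chr10:25112808-25113107, plus strand), LAMA5-AS1 for H4K12pr (chr20:62352720-62353019, plus strand) and LINC01034 for H4K12bu (chr13:76014452-76014751, minus strand), with 1, 12 and 1 CpGs.
LINC01516: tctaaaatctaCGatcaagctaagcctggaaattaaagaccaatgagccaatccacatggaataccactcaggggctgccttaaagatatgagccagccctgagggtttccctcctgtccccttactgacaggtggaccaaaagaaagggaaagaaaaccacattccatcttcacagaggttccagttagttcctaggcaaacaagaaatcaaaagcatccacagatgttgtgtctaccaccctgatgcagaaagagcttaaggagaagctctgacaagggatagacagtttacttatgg
LAMA5-AS1: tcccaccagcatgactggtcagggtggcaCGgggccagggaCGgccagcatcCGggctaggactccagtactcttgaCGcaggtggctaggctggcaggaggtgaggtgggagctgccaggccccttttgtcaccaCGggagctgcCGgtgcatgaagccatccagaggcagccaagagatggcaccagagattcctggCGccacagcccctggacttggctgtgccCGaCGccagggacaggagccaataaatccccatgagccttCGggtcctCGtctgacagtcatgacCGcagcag
LINC01034: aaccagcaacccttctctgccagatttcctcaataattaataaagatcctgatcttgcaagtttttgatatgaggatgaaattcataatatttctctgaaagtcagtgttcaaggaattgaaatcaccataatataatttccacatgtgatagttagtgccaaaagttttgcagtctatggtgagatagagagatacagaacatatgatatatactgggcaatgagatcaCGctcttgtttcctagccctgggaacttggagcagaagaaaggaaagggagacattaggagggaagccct

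Their GC content ranged from 38.3% in LINC01034 to 64.7% in KMT2E-AS1. The rule looked at the annotated start of each protein-coding gene, and 1056 of the promoters (7.31%) had the start of another protein-coding transcript within 5 kb. Such a start lay 0.103 kb from that of KMT2E-AS1 and 0.981 kb from that of LAMA5-AS1. ChIP-seq carries no strand, so peaks there cannot be told apart from those of the protein-coding transcript.

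The stand-alone lncRNA promoters were AT-rich and remote. Their median GC content was 44.9%, against 54.6% for the 14968 single protein-coding promoters, those with no other protein-coding start within 5 kb. A window was called CpG-rich when its CpG count reached 0.6 of that expected from its bases and its GC content 50%. By that measure 985 stand-alone lncRNA promoters (6.81%) were CpG-rich, against 44.4% of single protein-coding promoters and 51.8% of the 4302 lncRNA promoters near a protein-coding start. The median distance to a protein-coding start was 65.2 kb, and 5011 of the windows lay inside a protein-coding gene and 9443 outside.

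The lists held 8158 to 208823 peaks per immunoprecipitated library, so a longer list had more chances to reach a window. H4K12ac under NaBu had 88658 peaks in replicate 1 and 11680 in replicate 2, and H3K18ac under NaPr had 202787 and 95194. In which promoters held a peak, 9 of 20 libraries were most like their own replicate, and 13 of 20 when each list was reduced to its 8158 strongest peaks. Replicate 1 of H3K18ac under NaPr was most like replicate 1 of H4K12ac without treatment, with a fraction of 0.584 of the promoters marked in either being marked in both, against 0.436 with its own replicate. Replicate 2 of H4K12ac under NaBu was most like replicate 1 of H4K12bu (0.541) and shared 0.276 with its own replicate. Differences that turn without one of these libraries are given beside the result.

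A peak was found over 2.17% to 24.7% of the stand-alone lncRNA promoters, depending on the library. H3K18pr marked 18.8% and 17.1% of them in its replicates and H4K12pr 24.7% and 18.9%. H3K18bu marked 5.20% and 4.77% and H4K12bu 2.88% and 2.17%, the lowest shares. All 4 butyryl libraries lay below every other immunoprecipitated library except replicate 2 of H4K12ac under NaBu.

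Among the acetyl marks, H3K18ac covered 23.6% and 16.9% of the promoters under NaPr, 19% and 12.4% under NaBu and 18.1% and 24.4% without treatment. H4K12ac covered 15.7% and 13.8% under NaPr, 12.3% and 3.65% under NaBu and 23% and 22.3% without treatment. H4K12ac was thus lower in both replicates of either treatment than in both untreated replicates, while the H3K18ac replicates overlapped across conditions. Counting error was small beside the spread of replicates, the 95% Wilson interval being 24% to 25.4% at the highest share and 1.94% to 2.42% at the lowest.

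To tell a preference for the start from peaks falling anywhere, the same windows were moved by 20 kb in each direction. Of the moved windows, H3K18pr peaks reached 11.4% and 10.4%, H4K12pr peaks 17.3% and 12.6%, H3K18bu peaks 2.20% and 2.35%, and H4K12bu peaks 0.991% and 0.867%. The ratio of the shares, the fold over shifted windows, was therefore 1.64 and 1.65 in the H3K18pr libraries, 1.43 and 1.49 in those of H4K12pr, 2.36 and 2.03 in those of H3K18bu, and 2.90 and 2.50 in those of H4K12bu. It ran from 1.34 for H4K12ac under NaPr to 2.85 for H4K12ac under NaBu among the acetyl libraries.

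**Figure D1:**
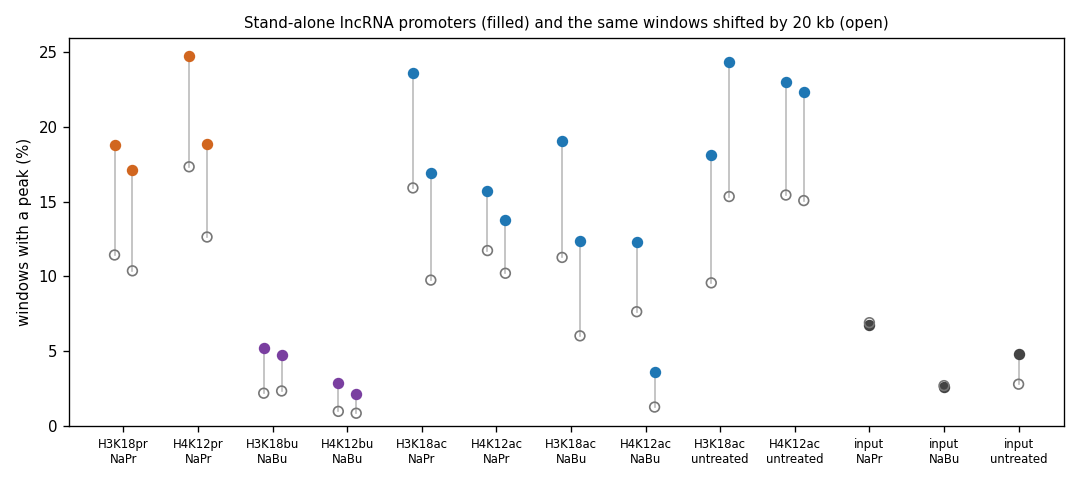
Share of the 14454 stand-alone lncRNA promoters with a peak in each library (filled points, percent) and of the same windows moved by 20 kb (open points), in 10 groups of 2 replicates and 3 inputs. Each filled point of an immunoprecipitated library lies above its open point, with shares from 2.17% to 24.7%, while the NaPr and NaBu inputs show no gap.

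Every immunoprecipitated library was above its shifted windows. The mean log2 enrichment over the 10 groups was 0.83 (exact sign-flip test over group means, two-sided, p = 0.00195, the smallest it can give; adjusted p = 0.00352 over 9 tests), positive in 20 of 20 libraries. The groups share cells and windows, so this p describes how regular the difference was among them. In the inputs the fold was 0.977 for the NaPr input (6.76% against 6.92% of shifted windows) and 0.965 for the NaBu input (2.62% against 2.71%). The untreated input differed, with 4.83% against 2.81%, a fold of 1.72. In that input 15.9% of single protein-coding promoters held a peak, against 3.77% of their shifted windows, and its part in the results was not tested. Without the 1911 promoters that overlapped a peak of any input, the mean log2 enrichment was 0.64. The shifted windows of the remaining promoters were kept even where they overlapped an input peak, which by itself lowers this value.

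At the margin of the rule, the 1156 promoters 5 to 10 kb from a protein-coding start had a median fold over groups of 1.57, while the 4302 closer ones had group means from 2.06 for H4K12ac under NaPr to 10.3 for H4K12bu. Farther out, the median fold was 1.51 at 10 to 50 kb, 1.90 at 50 to 100 kb and 2.12 beyond 100 kb. The shares themselves fell along the same classes, the highest group having 37.2%, 30.8%, 23.8% and 13% of windows with a peak. The promoters beyond 100 kb thus held fewer peaks than those at 5 to 10 kb, but the shares of their shifted windows were lower by a larger proportion.

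Enrichment at stand-alone lncRNA promoters was lower than at single protein-coding ones in every library. H3K18pr marked 49.5% and 43.0% of the protein-coding windows, 3.51-fold and 3.32-fold over their shifted windows. H4K12bu marked 8.63% and 6.17% of them, 7.17-fold and 6.05-fold. The mean difference in log2 enrichment was -1.02 (exact sign-flip test over 10 group means, two-sided, adjusted p = 0.00352), and it was negative in 20 of 20 libraries.

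CpG content set the promoters of both kinds apart. CpG-rich stand-alone lncRNA promoters held a peak in 7.92% to 65.9% of cases across groups, with a median fold of 4.29, against 5.09 for CpG-rich single protein-coding promoters. CpG-poor ones held a peak in 2.13% to 19.8%, with a median fold of 1.46 against 2.56. Among CpG-rich promoters alone the lncRNA minus protein-coding difference was -0.13 on the log2 scale (exact p = 0.0391, adjusted p = 0.0781) and no longer passed the test, and among CpG-poor promoters it was -0.76. Both of these comparisons were added after seeing the data. Between the lncRNA classes, CpG-rich promoters exceeded CpG-poor ones by 1.48 on the log2 scale (exact sign-flip test, adjusted p = 0.00352), in 20 of 20 libraries.

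**Figure D2:**
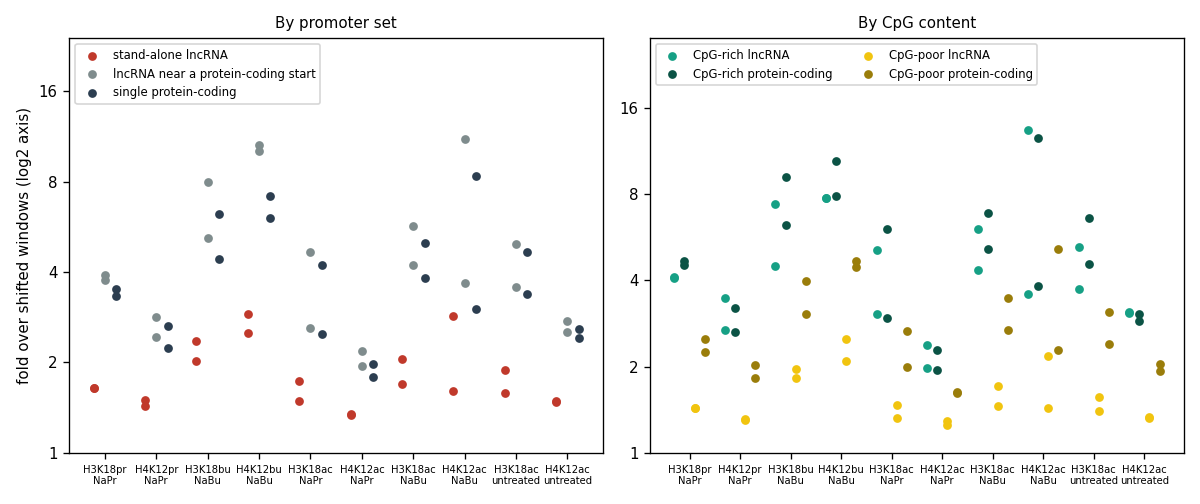
Fold over shifted windows (log2 axis) in each library of the 10 groups, for stand-alone lncRNA, other lncRNA and single protein-coding promoters (left) and for CpG-rich and CpG-poor windows of the stand-alone lncRNA and single protein-coding sets (right). Stand-alone lncRNA points lie lowest in each group on the left, and on the right the CpG-rich sets lie near each other, with medians of 4.29 and 5.09.

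Promoters inside protein-coding genes were less enriched than those outside, with median folds of 1.40 and 1.90. The log2 difference was -0.43 (exact sign-flip test over 10 group means, adjusted p = 0.00352) and negative in 20 of 20 libraries. The CpG-poor promoters inside genes stood least above their shifted windows, at a median fold of 1.17, although they held a peak in up to 25.8% of cases. For CpG-rich promoters alone the inside minus outside difference was -0.25 (exact p = 0.0352, adjusted p = 0.0781), which did not pass the test.

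Around the starts, coverage by peaks rose on both sides and dipped at the start itself. The highest 100 bp bin of the stand-alone lncRNA promoters was centred 150 to 350 bp downstream in all 10 groups, 2.07-fold to 4.48-fold above the level 4 to 5 kb away. For H4K12bu, the group with the sharpest profile, 0.810% of the windows were covered in that bin against 0.181% at 4 to 5 kb. At single protein-coding promoters the highest bin was also downstream for both propionyl marks, for H3K18ac under NaPr and for both untreated acetyl marks, but 350 to 450 bp upstream for both butyryl marks, both acetyl marks under NaBu and H4K12ac under NaPr.

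Over the whole window, downstream coverage of the stand-alone lncRNA promoters exceeded upstream coverage in 19 of 20 libraries. H3K18pr covered 89.6 and 71.7 bp downstream and 79.4 and 63.0 bp upstream per window. The ratio was 0.977 in replicate 2 of H4K12bu and otherwise between 1.01 and 1.19. The mean log2 ratio was 0.16 (exact sign-flip test over 10 group means, adjusted p = 0.00352). At single protein-coding promoters the same ratio spanned 0.572 to 1.60.

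**Figure D3:**
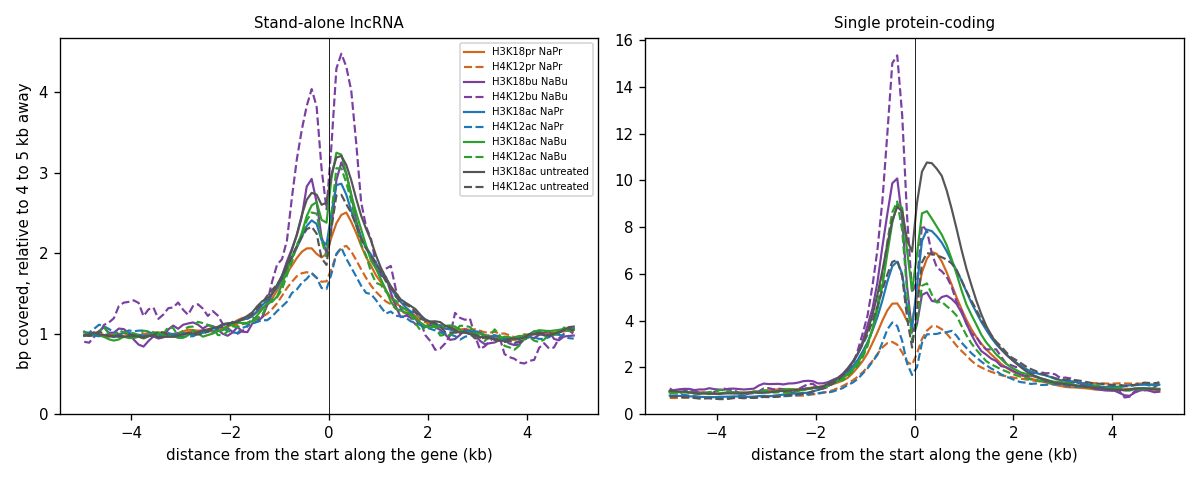
Mean share of bp covered by peaks in 100 bp bins, relative to that 4 to 5 kb away, against distance from the start along the gene (kb), for stand-alone lncRNA (left) and single protein-coding promoters (right), 1 line per group. Solid lines are H3K18 and dashed lines H4K12, and the lncRNA lines peak 150 to 350 bp downstream at 2.07 to 4.48.

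The propionyl and butyryl marks were next set against acetylation of the same lysine in the same treatment. On the log2 scale the enrichment of H3K18pr exceeded that of H3K18ac under NaPr by 0.04, of H4K12pr that of H4K12ac by 0.12, of H3K18bu that of H3K18ac under NaBu by 0.23 and of H4K12bu that of H4K12ac by 0.33. On this scale the libraries of both groups stood apart for H4K12pr and overlapped in the other 3 pairs. The H3K18pr difference turned to -0.08 without replicate 1 of H3K18ac under NaPr, and that of H4K12bu to -0.08 without replicate 1 of H4K12ac under NaBu. The mean of 0.18 did not pass the test (exact stratified permutation test, two-sided, p = 0.0926, adjusted p = 0.139). With the 8158 strongest peaks of every list it was -0.08, and the order turned for both propionyl marks, H3K18pr lying below its acetyl mark by -0.20 and H4K12pr by -0.15 with no overlap of libraries. H3K18bu was then above by 0.05, again without overlap, and H4K12bu at -0.01. With all peaks and without replicate 2 of H4K12ac under NaBu the mean was 0.28 (exact permutation test, adjusted p = 0.0208). From the names of the lists, the propionyl libraries carried another run tag than the acetyl libraries under NaPr, so mark and run cannot be told apart there.

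The fragments behind the lists also differed. From the fold and p of each peak, background depth was 3.38 to 8.38 fragments per kb in propionyl libraries, 24.1 to 38.6 in acetyl libraries under NaPr and 11.2 to 38.5 in untreated ones. It was not recovered here for NaBu libraries. The shortest peaks were 340 to 350 bp long in propionyl libraries, and 175 to 265 bp in acetyl libraries under NaPr or without treatment. The part of depth and of peak width in these results was not tested.

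Acetyl enrichment at stand-alone lncRNA promoters was set against that of untreated cells, and neither treatment passed the test. NaPr minus untreated was -0.11 for H3K18ac and -0.14 for H4K12ac on the log2 scale, with a mean of -0.13 (exact stratified permutation test, two-sided, p = 0.111, adjusted p = 0.143). NaBu minus untreated was 0.10 for H3K18ac and 0.53 for H4K12ac, with a mean of 0.31 (exact p = 0.222, adjusted p = 0.25). With 2 replicates per group these permutation tests cannot give a p below 0.0556. For H4K12ac the replicates of either treatment did not overlap the untreated ones, and lay below them under NaPr and above them under NaBu. The NaBu difference was not seen with equal numbers of peaks, at 0.004 with overlapping libraries, whereas that of NaPr was -0.14. Relative to single protein-coding windows of the same library, a scale chosen after seeing the data, both turned, to 0.26 under NaPr and -0.48 under NaBu, without overlap. The H3K18ac difference turned to 0.01 under NaPr without replicate 1 of the untreated group, and under NaBu to -0.04 without replicate 2 of the treated and to -0.02 without replicate 2 of the untreated group. Run tag and NaBu treatment cannot be told apart, since all NaBu libraries carried 1 tag.

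In the number of promoters marked, H4K12ac was lower under both treatments. Both of its replicates marked 2402 stand-alone lncRNA promoters (16.6%) without treatment, 993 (6.87%) under NaPr and 498 (3.45%) under NaBu. Of single protein-coding promoters they marked 53.4%, 16.4% and 11.1%, so the fall was not particular to lncRNAs. Under NaBu the short list of replicate 2 marked 527 stand-alone lncRNA promoters, against 1775 in replicate 1. H3K18ac marked 2246 (15.5%), 1778 (12.3%) and 1544 (10.7%). Among the acyl marks, H3K18pr was in both replicates at 1725 promoters (11.9%), H4K12pr at 2097 (14.5%), H3K18bu at 466 (3.22%) and H4K12bu at 233 (1.61%). The shares of single protein-coding promoters were 36.8%, 43.2%, 7.98% and 4.25% in that order.

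H3K18 and H4K12 were compared within each mark and treatment. H3K18 was the more enriched by 0.17 on the log2 scale for propionylation, 0.25 for acetylation under NaPr and 0.22 without treatment, with no overlap of libraries. It was the less enriched by -0.30 for butyrylation, again without overlap, and by -0.20 for acetylation under NaBu, where the libraries overlapped. Without replicate 2 of H4K12ac under NaBu the last difference turned to 0.21. With equal numbers of peaks the differences were 0.02 for propionylation, 0.07 for acetylation under NaPr, -0.12 without treatment, -0.05 for butyrylation and -0.12 for acetylation under NaBu, and only the libraries of acetylation under NaPr stood apart. With all peaks the mean difference was 0.03 (exact stratified permutation test, two-sided, p = 0.784). As a difference in percentage points over shifted windows, chosen after seeing the data, H3K18 exceeded H4K12 in all 5 pairs, by a mean of 1.98 points (exact permutation test, adjusted p = 0.00313).

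Single promoters were then sorted by which marks they carried. A promoter was called one-sided when both replicates of one group had a peak there and neither replicate of the other had. Counts are read against the share of all 38726 promoters that the same rule called.

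Propionylation and acetylation were split unevenly between the lysines. H4K12pr stood without H4K12ac under NaPr at 799 stand-alone lncRNA promoters (5.53%, against 13.6% of all promoters) and the converse held at 135 (0.934%, against 0.757%). H4K12pr thus had 85.5% of the one-sided promoters, and 81.6% of the one-sided shifted windows. The 95% Wilson interval of 83.1% to 87.7% counts promoters and leaves out the spread between libraries. Without 1 library the share of the promoters ran from 57.2% to 90.7%. At H3K18, 185 promoters had the propionyl mark alone (1.28%, against 0.896% of all promoters) and 261 the acetyl mark alone (1.81%, against 3.4%). The H3K18pr share was 41.5%, and 47.2% among shifted windows. Over the promoters it rose to 58.5% without replicate 1 of H3K18pr, 64.7% without its replicate 2 and 66.9% with equal numbers of peaks. It was 18.9% without replicate 2 of H3K18ac.

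The promoters on either side differed in base composition. Of those with H4K12pr alone 22.7% were CpG-rich, against 2.22% of the 135 with H4K12ac alone and 6.81% of all stand-alone lncRNA promoters. At H3K18 the order was opposite, with 3.24% CpG-rich of the 185 with the propionyl mark alone and 14.2% for the acetyl mark alone. The part of depth and peak width in these differences was not tested.

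LINC01516, whose sequence is given above, came first on the H3K18pr side among promoters with a symbol and no input peak. Peaks covered 721 and 748 bp of its 2001 bp window, with peak folds of 11.6 and 10.5 over local background, and 0 bp in both H3K18ac libraries under NaPr. The promoter was not without acetylation elsewhere, with 427 and 399 bp of H3K18ac under NaBu. FHAD1-AS1 followed, with 833 and 660 bp of H3K18pr and none in the other H3K18 libraries except 74 bp in 1 H3K18ac library under NaBu. A protein-coding transcript began 1.22 kb from it. On the acetyl side CLMAT3 had 649 and 738 bp of H3K18ac under NaPr and 0 bp of H3K18pr.

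LAMA5-AS1, antisense to the gene of a laminin chain of the basement membrane, came first on the H4K12pr side by the same choice. H4K12pr covered 1878 and 2001 bp of its window, at folds of 9.29 and 14.1, and H4K12ac under NaPr 0 bp. Without treatment H4K12ac covered 1065 and 825 bp of the same window. LINC03009 had 999 and 1329 bp of H4K12pr. FAM86DP and LINC02018, next in order, have overlapping windows in a duplicated gene family, so their reads are uncertain. On the acetyl side PDE7B-AS1 had 447 and 272 bp and LINC02208 336 and 193 bp of H4K12ac, each with 0 bp of H4K12pr.

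Butyrylation was seldom found where both acetyl libraries of the same lysine under NaBu lacked a peak. H3K18bu stood without H3K18ac at 1 promoter (0.00692%, against 0.0155% of all promoters), the converse at 710 (4.91%, against 15.5%). H4K12bu stood without H4K12ac at 5 (0.0346%, against 0.0516%), the converse at 136 (0.941%, against 3.34%). The butyryl lists were short, with 22059 and 22497 peaks for H3K18bu and 9642 and 8158 for H4K12bu. The butyryl side had 0.141% of one-sided promoters at H3K18 and 3.55% at H4K12, and 0.423% and 1.83% of one-sided shifted windows. With equal numbers of peaks the butyryl side had 16.9% and 30.6% of one-sided promoters.

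The 1 promoter on the H3K18bu side was that of ENSG00000275476, with 268 and 193 bp covered. Of the 5 on the H4K12bu side, LINC01034 was the one with a symbol and no input peak. H4K12bu covered 234 and 196 bp of its window, at folds of 2.66 and 2.81, and H4K12ac under NaBu 0 bp. H3K18bu covered 419 and 539 bp there, so both butyryl marks were present. The promoter was not without acetylation elsewhere and held a peak in 12 of 20 libraries. H3K18ac covered 689 and 243 bp under NaBu and 647 and 532 bp without treatment, and untreated H4K12ac 399 bp in replicate 2. MIR3142HG, host of a microRNA, was another of the 5, with 305 and 189 bp of H4K12bu, but it also overlapped an input peak. Untreated H4K12ac covered 212 and 227 bp of it, and H3K18ac under NaBu 242 bp in replicate 1.

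On the acetyl side LINC00324 had 1233 and 1264 bp of H3K18ac under NaBu and 0 bp of H3K18bu. LINC00449 had 1320 and 1533 bp and 0 bp, with a protein-coding transcript start 0.42 kb away. LINC02970 had 749 and 708 bp of H4K12ac under NaBu and 0 bp of H4K12bu. Of the promoters with the acetyl mark alone, 27.3% were CpG-rich at H3K18 and 41.2% at H4K12, against 6.81% of all stand-alone lncRNA promoters.

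Against untreated cells, the one-sided promoters of H4K12ac were mostly on the untreated side. H4K12ac was in untreated cells alone at 914 stand-alone lncRNA promoters in the comparison with NaPr (6.32%, against 17.6% of all promoters) and in NaPr alone at 103 (0.713%, against 0.439%). In the comparison with NaBu it was in untreated cells alone at 1364 (9.44%, against 20.7%) and in NaBu alone at 31 (0.214%, against 0.124%). Of the 914 promoters 25.4% were CpG-rich, of the 103 on the NaPr side 1.94% and of all stand-alone lncRNA promoters 6.81%. The NaPr share of 10.1% became 31.0% without its replicate 1 and 36.1% without its replicate 2. The NaBu share of 2.22% became 27.9% without replicate 2 of H4K12ac under NaBu. Among shifted windows the H4K12ac share was 14.5% for NaPr and 1.07% for NaBu.

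For H3K18ac the sides were closer. NaPr alone had 112 promoters (0.775%, against 0.545% of all promoters) and untreated alone 155 (1.07%, against 1.2%). NaBu alone had 142 (0.982%, against 0.697%) and untreated alone 451 (3.12%, against 5.43%). The NaPr share of 41.9% became 78.1% without replicate 2 of H3K18ac under NaPr and 14.5% without replicate 1 of the untreated group. The NaBu share of 23.9% became 56.0% without replicate 2 of H3K18ac under NaBu and 12.1% without replicate 1 of the untreated group. Among shifted windows the H3K18ac share was 48.2% for NaPr and 26.7% for NaBu.

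**Figure D4:**
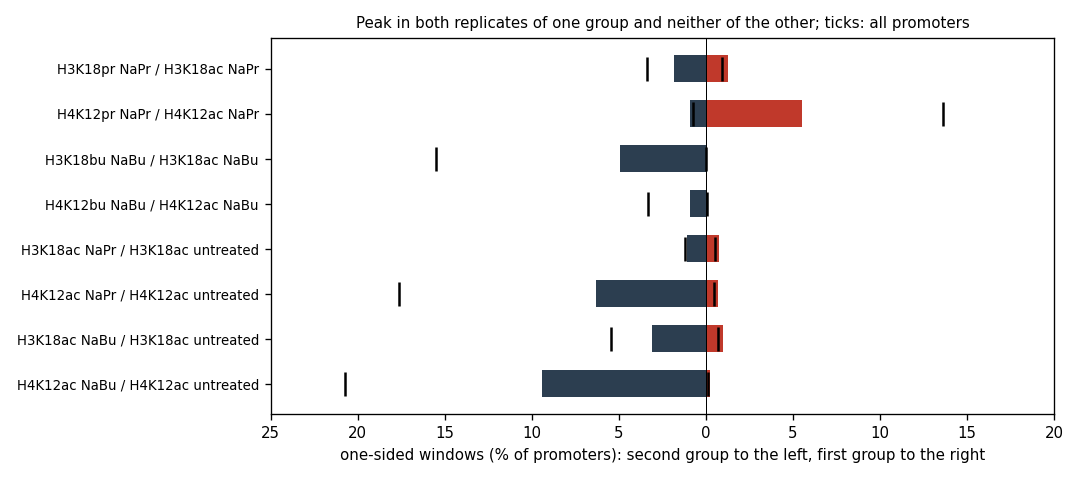
One-sided stand-alone lncRNA promoters in 8 comparisons as a percentage of the 14454 promoters, first-named group to the right (red) and second to the left (dark), with black ticks for all 38726 promoters. The longest bars are H4K12ac without treatment against NaBu at 9.44% and against NaPr at 6.32% and H4K12pr at 5.53%, each short of its tick at 20.7%, 17.6% and 13.6%.

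Some promoters held H4K12ac under treatment alone. LURAP1L-AS1 had 1150 and 405 bp of H4K12ac under NaPr and 803 and 859 bp under NaBu, and 0 bp in both untreated libraries. It held H3K18ac without treatment, at 865 and 728 bp, and a peak in 18 of 20 libraries. PCSEAT was on the NaBu side for both lysines, with 2001 and 1861 bp of H3K18ac and 1052 and 649 bp of H4K12ac under NaBu against 0 bp in the 4 untreated libraries. H3K18bu covered 1853 bp of PCSEAT in replicate 1 and less in replicate 2. NINJ2-AS1 had 770 and 704 bp of H3K18ac under NaBu, at folds of 15.1 and 15.2, and 0 bp untreated.

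Others held acetylation in untreated cells alone. BRWD1-AS1 had 670 and 551 bp of H4K12ac without treatment and 0 bp in the 4 treated H4K12ac libraries, with a protein-coding transcript start 1.89 kb away. LIF-AS1, antisense to the cytokine gene LIF, had 2001 and 2001 bp of H3K18ac without treatment and 0 bp under NaBu. SNHG6, a snoRNA host gene, had 1156 and 1450 bp untreated and 0 bp under NaBu. LINC00526 had 1310 and 1234 bp of H4K12ac without treatment and 0 bp under NaPr and under NaBu. FAM157C and FAM157D, which led the untreated side against NaBu among those with a symbol and no input peak, belong to a duplicated family. Their values are uncertain.

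Across all marks, 6103 stand-alone lncRNA promoters (42.2%) held no peak in any of the 20 immunoprecipitated libraries, against 49.8% of shifted windows and 19.5% of single protein-coding promoters. At the other end 147 (1.02%, against 2.29% of all promoters) held one in all 20, against 0.267% of shifted windows. Between them 5606 held a peak in 1 to 5 libraries, 1295 in 6 to 10, 936 in 11 to 15 and 367 in 16 to 19. A peak in 10 or more was found for 1657 (11.5%), against 4.97% of shifted windows and 44.6% of single protein-coding promoters.

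The 147 promoters formed 127 groups when those within 10 kb were joined. Of the 147 promoters 29 (19.7%) were CpG-rich, against 6.81% of all 14454 stand-alone lncRNA promoters. Inside protein-coding genes lay 45, against 5011 of the 14454. A protein-coding transcript start lay within 5 kb of 22, against 1056 (7.31%) of the 14454. An input peak overlapped 49, against 1911 (13.2%) of the 14454. Of the 98 without an input peak 34 had a symbol. LINC01186, 119.6 kb from any protein-coding start and CpG-poor, headed these. H3K18pr covered 2001 and 2001 bp of its window, at folds of 74.5 and 45.3, H4K12pr 1995 and 2001 bp, H3K18bu 1764 and 1962 bp and H4K12bu 1502 and 1691 bp. The acetyl libraries covered 1648 to 2001 bp.

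LNCRNA-IUR, which is CpG-rich, had 2001 and 2001 bp of H3K18pr, 1997 and 1165 bp of H3K18bu and 1537 and 989 bp of H4K12bu. DLGAP1-AS1 had 1442 and 1634 bp of H3K18pr, 1279 and 1244 bp of H3K18bu and 837 and 711 bp of H4K12bu. LINC01132 had 2001 and 1662 bp of H3K18pr, 1559 and 1128 bp of H3K18bu and 892 and 644 bp of H4K12bu. In each of these H4K12bu covered fewer bp than H3K18pr. The others among the first 10 were KMT2E-AS1, LINC01004, MALAT1, PRKAR1B-AS1, LINC02313 and GASAL1, and the window of LINC01004 overlaps that of KMT2E-AS1.

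The 300-base promoters were searched on both strands for 4 short motifs. The AP-1 motif (TGACTCA) was in 6.55% of stand-alone lncRNA promoters, 4.30% of single protein-coding and 4.86% of all promoters. It was in 5.96% of those with no peak in any library, 10.6% of those with a peak in 10 or more and 13.6% of the 147. By mark it was in 11% of those with H3K18pr in both replicates, 12.4% with H3K18bu, 12.9% with H4K12bu and 12.1% with H4K12ac under NaPr. In the other 6 groups it was in 8.16% to 9.20%.

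CpG-containing motifs followed CpG content. The GC box (GGGCGG) was in 14.5% of stand-alone lncRNA, 50.4% of single protein-coding and 38.0% of all promoters, and the ETS motif (CCGGAAG) in 3.24%, 9.65% and 8.45%. Among the stand-alone lncRNA promoters the GC box was in 8.70% of those with no peak and 40.2% of those with a peak in 10 or more libraries. The letters TATAAA were in 18.3% of them, 12.0% of single protein-coding and 13.3% of all promoters, in 23.5% of those with no peak and in 8.81% of those with 10 or more. Such matches describe letters and no factor was measured.

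Named lncRNAs were read from lists by known role, 80 of whose genes were stand-alone. Of these 38 (47.5%) held a peak in 10 or more libraries and 18 (22.5%) in none, against 11.5% and 42.2% of all stand-alone lncRNA promoters. The lists hold well-studied genes, and no test was made on them.

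The nuclear body list had 4 members. MALAT1, an abundant RNA of nuclear speckles, and NEAT1, the scaffold of paraspeckles, held a peak in 20 of 20 libraries, while MIAT and SNHG14 held none. MALAT1 begins at chr11:65497640, 27.4 kb from a protein-coding start. H3K18pr covered 2001 and 1836 bp of its window, at folds of 99.7 and 68.8, and H4K12pr 2001 and 2001 bp, at 43.7 and 35.0. H3K18bu covered 1448 and 1369 bp and H4K12bu 1122 and 979 bp, at folds of 4.46 to 9.92. H3K18ac covered 1694 and 2001 bp under NaPr, 1780 and 1664 bp under NaBu and 1795 and 1871 bp without treatment. H4K12ac covered 1583 and 1600, 1281 and 1142, and 1603 and 1639 bp. Both H4K12ac replicates under NaBu were thus below the other H4K12ac libraries. NEAT1 was alike, with 2001 bp of H3K18pr and H4K12pr in every library and 1667 and 462 bp of H3K18bu, and overlapped 1 input peak.

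The list of snoRNA hosts, genes whose introns release the small nucleolar RNAs that guide modification of ribosomal RNA, had 13 stand-alone members. It left out SNHG14, a snoRNA host by name that was on the nuclear body list and held no peak. All 13 listed hosts held a peak in 10 or more libraries. All 13 carried H4K12pr and both untreated acetyl marks in both replicates. Counts of 11 were found for H3K18pr, 12 for H3K18ac under NaPr, 10 for H3K18ac under NaBu, 8 for H4K12ac under NaBu, 6 for H3K18bu, 5 for H4K12ac under NaPr and 4 for H4K12bu. SNHG15 held a peak in 20 libraries, with 1888 and 861 bp of H3K18pr, 1090 and 271 bp of H3K18bu and 992 and 789 bp of H4K12bu, and overlapped an input peak. SNHG29, with no input peak, held 19, lacking H4K12ac in 1 of the NaPr replicates. SNHG12 held 10, with no butyryl peak and no H4K12ac under either treatment, but 1140 and 1163 bp of H4K12ac untreated.

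The microRNA hosts were mixed. Of 26, 9 held a peak in 10 or more libraries and 7 in none. MIR200CHG, host of miR-200c and miR-141, which maintain the epithelial state, held a peak in 20. H3K18pr covered 2001 and 1806 bp of MIR200CHG, H3K18bu 1191 and 244 bp, H4K12bu 382 and 454 bp, and H3K18ac 2001 bp in each of its 6 libraries. MIR17HG, host of the miR-17-92 cluster, had 0 bp of H3K18pr in both replicates but 789 and 358 bp of H3K18ac under NaPr. MIR31HG had 1597 and 1405 bp of H3K18ac and 1643 and 1338 bp of H4K12ac untreated, 410 and 703 bp of H3K18pr and 0 bp in all 8 libraries under NaBu. MIR222HG had 1767 and 1652 bp of H3K18pr and 0 bp of both butyryl marks. MIR100HG, MIR205HG and MIR137HG were among those without a peak.

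Of 20 lncRNAs known from colorectal cancer, 10 held a peak in 10 or more libraries and 5 in none. CYTOR held 19, with 1466 and 1650 bp of H3K18pr at folds of 20.2 and 11.9, 530 and 709 bp of H3K18bu and 917 and 935 bp of H3K18ac untreated. UCA1 had 1933 and 1474 bp of H3K18pr, against 819 and 1331 bp of H3K18ac under NaPr and 1212 and 1178 bp untreated. UCA1 was thus covered more widely by H3K18pr than by H3K18ac under NaPr or without treatment, but the shortest peaks were also longer in the H3K18pr lists. LUCAT1 had 1591 and 1706 bp of H3K18pr and 517 and 496 bp of H3K18bu. LINC00460 had 2001 and 1943 bp of H3K18pr, 2001 and 1752 bp of H3K18ac untreated and 0 bp in all 8 NaBu libraries, and overlapped an input peak. H19 and TUSC7 held none.

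At the 8q24 locus next to MYC, PVT1 held a peak in 20 libraries, with 1738 and 1658 bp of H3K18pr and 861 and 772 bp of H3K18bu. CCAT2 held 1, of 266 bp in replicate 1 of H4K12ac under NaBu, and PRNCR1, CASC8 and CASC19 held none within 1 kb of their starts. Peaks elsewhere in or near these genes were not counted.

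The remaining lists were smaller. The list of p53 and genome stability had 3 members, with peaks in a median of 1 library, and 1 member held none. Only NORAD of these held a peak in 10 or more. NORAD, which binds PUMILIO proteins, held a peak in 17 libraries, with 1664 and 1523 bp of H3K18pr at folds of 47.4 and 25.0, 251 and 207 bp of H3K18bu and 0 bp of H4K12bu. Of 8 imprinted lncRNAs 1, KCNQ1OT1, held a peak in 10 or more. H3K18pr covered 1750 and 1622 bp of KCNQ1OT1, H3K18ac 2001 and 1791 bp untreated, and butyryl marks 0 bp, and it overlapped an input peak. MEG3 held 1 peak, of 95 bp. JPX and FTX of the X inactivation centre held 16 and 13. Of 4 neural or muscle lncRNAs none reached 10, and LINC00461 held 4.

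**Figure D5:**
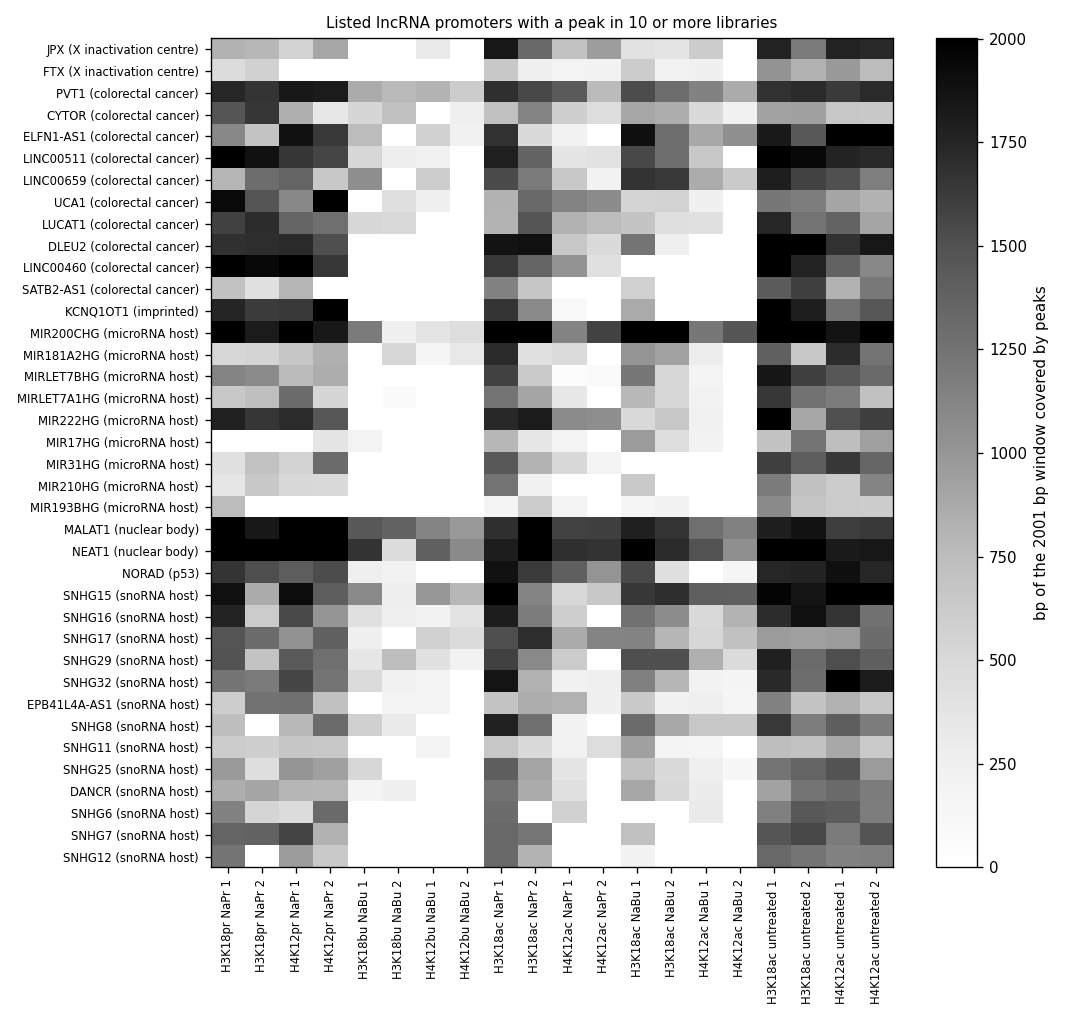
Bp of the 2001 bp window covered by peaks (grey scale) for the 38 listed lncRNAs with a peak in 10 or more libraries, 1 row per gene and 1 column per library, in groups of 2 replicates. MALAT1, NEAT1, MIR200CHG, SNHG15 and PVT1 are shaded in all 20 columns, and the 4 butyryl columns are the palest.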

How the data were processed

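The authors used Bowtie2 for alignment (GRCh38.p13) and MACS2 for peaks, library by library with input as control. The submitters' processing notes list bcl2fastq 2.17.1, cutadapt 1.8.1, Bowtie2 2.3.1 and MACS2 2.1.0. The names of the deposited lists give a p-value limit of 0.01 and a filter, read here as removal of blacklisted regions. Each peak as deposited has a fold, the ratio of pileup to local background, and the authors' −log10 p-value and −log10 q-value. Coordinates are hg38. The control of the input lists is not given in the sources used here. Sequencing depth per library was not given in the lists; a background depth was solved here from fold and p where pileups were unscaled.

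Starts came from GENCODE 44. A window had a peak when 1 bp overlapped. Enrichment was the log2 ratio of the shares of windows and of shifted windows, with 0.5 windows added to each count. Shifted windows over chromosome ends or assembly gaps were left out (58 of them), and 28850 remained, of which 4486 lay within 5 kb of a start. CpG content was counted over the 2001 bp window. Differences from shifted windows, from single protein-coding windows or between classes were tested by exact sign flips of 10 group means. Group contrasts were tested by exact permutation of libraries within strata. All tests were two-sided, with Benjamini-Hochberg adjustment over 9 tests. Among CpG classes, as percentage points and relative to protein-coding windows, tests that did not apply were left out and adjustment was over fewer. The script recovered simulated log2 values to within 0.04 over 14000 windows. Python 3.11.15, numpy 2.4.6, pandas 2.3.3 and scipy 1.17.1 were used. The lists hold no reads, so changes in read number are not given. Groups came from the sample labels, and run tags from the names of the lists.

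The genes named were every listed lncRNA, the 10 with a symbol, a peak in all 20 libraries, no input peak and the highest mean rank of fold, and for each direction of 8 comparisons the 4 one-sided ones with a symbol, no input peak and the highest lower rank of fold. Of these a part is described. Names outside this rule were ENSG00000275476 and MIR3142HG, chosen after their values were seen. RefSeq held promoter sequences for 2492 of the 4035 members with a symbol, but the sequences shown were cut from hg38 at the GENCODE starts. Members and lists were chosen with earlier results of these data known. Alternatives are given in the closing section.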

Additional observations from a re-analysis of the deposited data

Results flagged for a closer look

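The sign of the difference between the lysines changed with the mark. At stand-alone lncRNA promoters the H3K18bu libraries were less enriched than the H4K12bu libraries, whereas H3K18pr was above H4K12pr, and H3K18ac above H4K12ac under NaPr and without treatment. The H3K18 minus H4K12 difference of butyrylation lay below that of propionylation by -0.47 on the log2 scale, below that of acetylation under NaPr by -0.55 and below that of acetylation without treatment by -0.52. Each of these 3 differences had an exact permutation p of 0.0556 over 36 arrangements, the smallest that 2 replicates per group allow, so none could pass a threshold of 0.05. Against acetylation under NaBu, the pair with the same run tag, the sign was shared (-0.30 and -0.20), but that of acetylation turned to 0.21 without replicate 2 of H4K12ac under NaBu. The butyryl lists were the shortest, and with equal numbers of peaks the 3 differences were -0.07, -0.11 and 0.07 (exact permutation p of 0.722, 0.389 and 0.611), so that the last turned. Relative to single protein-coding windows all 3 turned, to 0.35, 0.56 and 0.48 (exact p = 0.167 for each).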

How the results depend on the processing

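The enrichment over shifted windows, the CpG and the downstream differences kept direction and call under every alternative run. The gap to single protein-coding promoters and that between windows inside and outside genes did so except among CpG-rich promoters (-0.13 and -0.25, neither passing). Acyl minus acetyl became -0.0771 with equal numbers of strongest peaks, -0.90 as percentage points and -0.0942 relative to single protein-coding windows. NaPr minus untreated became 0.22 relative to single protein-coding windows. NaBu minus untreated became -2.81 as percentage points and -0.26 relative to single protein-coding windows. H3K18 minus H4K12 became -0.0175 with q under 0.05, -0.0386 with equal numbers, -0.25 within the NaBu run tag, -0.0016 among CpG-poor promoters, -0.25 relative to single protein-coding windows and 1.98 as percentage points. The cause of these changes was not tested. The settings with percentage points, CpG classes, protein-coding transcript starts and the scale relative to protein-coding windows were chosen after seeing the data.

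One-sided shares moved with the list. With q under 0.05 they were 93.3% for H4K12pr, 0% for H3K18bu and H4K12bu, 4.96% for H4K12ac under NaPr, and 13.3% and 0.357% for H3K18ac and H4K12ac under NaBu. With equal numbers they were 66.9% for H3K18pr, 16.9% for H3K18bu, 30.6% for H4K12bu, 11.5% for H3K18ac under NaPr, and 32.8% and 23.6% for H3K18ac and H4K12ac under NaBu. Within 500 bp they were 89.95% for H4K12pr, 0% for H3K18bu, and 32.7% and 7.93% for H3K18ac and H4K12ac under NaPr.

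Leaving out each library in turn gave 0.79 to 0.87 over shifted windows, -1.06 to -0.99 against protein-coding windows, 0.15 to 0.17 downstream against upstream, 1.41 to 1.54 for CpG content, -0.45 to -0.41 inside against outside, 0.0771 to 0.28 for acyl against acetyl, -0.19 to -0.07 for NaPr, 0.11 to 0.52 for NaBu and -0.0528 to 0.11 for H3K18 against H4K12, which turned without replicate 1 of H4K12ac under NaBu. The one-sided share ranged over 18.9% to 64.7% for H3K18pr, 57.2% to 90.7% for H4K12pr, 0.216% to 5.30% for H3K18bu, 0.373% to 15.4% for H4K12bu, 14.5% to 78.1% and 8.69% to 36.1% for H3K18ac and H4K12ac under NaPr, and 12.1% to 56.0% and 1.63% to 27.9% under NaBu. A group left with 1 library needs a peak in that library alone, so these shares change by construction. For H3K18bu the share was 5.30% without its replicate 1 and 1.88% without its replicate 2, and 0.478% and 0.216% without replicates 2 and 1 of H3K18ac. For H4K12bu it was 9.49% and 15.4% without its replicates 1 and 2, and 9.66% and 0.373% without replicates 1 and 2 of H4K12ac.

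Replicate numbers were shared between groups, and the labels tie no number to a batch or day. Correlations of replicate differences over promoters ran from -0.0006 to 0.240, above 0 in 12 of 13 pairs of groups and above 0.1 in 6, so the numbers were not taken to pair the samples, and a shared source of some was not tested. With the replicate number as a block no call changed, the exact permutation p being 0.188 for acyl against acetyl (0.18), 0.25 for NaPr (-0.13), 0.375 for NaBu (0.31) and 0.740 for H3K18 against H4K12 (0.03). Peak presence depends on depth, and a promoter without a peak may carry the mark below the limit of its list. With 2 replicates, small differences were not detectable.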

Other observations

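Stand-alone lncRNA promoters were marked unevenly along the genome. Averaged over the 20 immunoprecipitated libraries, 6.42% of those on chromosome 4 and 7.64% of those on chromosome 18 held a peak, against 23.4% on chromosome 17 and 23.5% on chromosome 20. Their shifted windows held one in 3.39%, 4.42%, 18.4% and 16.7%, so that the fold was 1.89 on chromosome 4 and 1.27 on chromosome 17. The fold was highest on chromosome 7, at 2.02 with 20.9% of 666 promoters marked. Copy number of these chromosomes in SW480 was not measured here, and no test was made over chromosomes.

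Of the 147 promoters with a peak in all 20 libraries, 20 lay on chromosome 1 (1.69% of its 1185 stand-alone lncRNA promoters), 16 on chromosome 11 (2.42% of 662), 14 on chromosome 7 (2.1% of 666) and 9 on chromosome 20 (2.54% of 355), against 1.02% in all. Promoters of lncRNAs with a symbol were more enriched than those with an Ensembl identifier alone, with median folds over groups of 2.04 and 1.55.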
